A study of Mus musculus with 10 samples.

Results

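The main histone gene cluster of the mouse lies on chromosome 13, and its contacts and domains were described across 10 Hi-C libraries of embryonic stem cells. A window of 3.5 Mb, from 21.0 to 24.5 Mb of chromosome 13 (mm9), was chosen on earlier results of these data. It holds the Hist1 genes in 2 blocks, block 1 from 21.8 to 22.15 Mb (350 kb) and block 2 from 23.5 to 23.9 Mb (400 kb), with 1.35 Mb of receptor genes between them. All listed interactions with an end in the window and all topologically associating domains (TADs) overlapping it were taken as members. They came to 55 of 13952 distinct interactions (94 of 17029 listed entries) and 22 of 21046 distinct TADs (68 of 41342 entries), with 25 of 27173 distinct TAD boundaries. The genes named for the locus are the 5 linker histone genes Hist1h1a, Hist1h1b, Hist1h1c, Hist1h1d and Hist1h1e.

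The libraries came from the mouse embryonic stem cell line ES-E14TG2a, grown without feeder cells in medium with LIF, the GSK3b inhibitor CHIR99021 and the MEK inhibitor PD0325901. There were 5 genotypes with 2 libraries each: WT, cells lacking the enhancer E1 (E1-KO), E2 (E2-KO) or E3 (E3-KO), and cells lacking E1 and E3 (E1&E3-dKO). The labels give neither the positions of the enhancers nor the origin of replicates from separate cultures or clones, so a p-value measures only the spread between these samples. The method was exo-Hi-C, in which DNA ends that lie close together in the nucleus are ligated and sequenced and an exonuclease step removes linear DNA; its enzymes, LRC or LIC, are not assigned to libraries. A number after a genotype is the replicate number in the labels. Embryonic stem cell markers could not be examined, because contact lists carry no expression.

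Most core histone genes and most linker histone genes of the mouse are found in this cluster, and cells transcribe them mainly while DNA is copied. Core histones H2A, H2B, H3 and H4 form the particle around which DNA is wrapped, and H1 proteins bind the DNA that enters and leaves it. The active genes gather in a nuclear compartment, the histone locus body, where the factor NPAT and the machinery for histone RNA processing are concentrated. Vomeronasal type 1 receptors, which detect pheromones, are made in sensory neurons of the vomeronasal organ. A TAD is a stretch of chromosome whose parts touch each other more often than they touch the neighbouring stretches.

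In the RefSeq annotation of GRCm38.p6 the cluster holds 56 histone genes in 2 groups, counting the pseudogenes H2ac14 in the first and H2ac5-ps in the second. The first group along the chromosome has 24, with Hist1h1b as its only H1 gene (number 10 in order), and 31 tRNA genes lie among them. The second has 32, with Hist1h1d (31), Hist1h1e (40), the testis gene Hist1h1t (43), Hist1h1c (45) and Hist1h1a (54). Between the groups are 147 genes: 36 vomeronasal type 1 receptor genes with 39 receptor pseudogenes, 46 tRNA genes, the butyrophilin genes Btn1a1 and Btn2a2, and others. Hfe, a regulator of iron uptake, Trim38 and the Slc17 transporter genes Slc17a1 to Slc17a4 stand among the histone genes of the second group. That annotation is of another build than the contact lists, so it serves here for names and order, and no gene was placed in a contact bin.

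The 200 bases before the RefSeq start of each of the 5 H1 genes are shown because these genes name the locus and the sequence was not used to choose them. All 5 matched the RefSeq promoter table, as Hist1h1b, H1f5 (chr13:21780626-21780825, minus strand), Hist1h1d, H1f3 (chr13:23554832-23555031, plus strand), Hist1h1e, H1f4 (chr13:23622559-23622758, minus strand), Hist1h1c, H1f2 (chr13:23738607-23738806, plus strand) and Hist1h1a, H1f1 (chr13:23763468-23763667, plus strand), all in GRCm38.p6. Each is written 5′ to 3′ on the strand of its gene. Capitals mark AAACACA (the H1 box), CCAAT and TATAAA on either strand.
Hist1h1b: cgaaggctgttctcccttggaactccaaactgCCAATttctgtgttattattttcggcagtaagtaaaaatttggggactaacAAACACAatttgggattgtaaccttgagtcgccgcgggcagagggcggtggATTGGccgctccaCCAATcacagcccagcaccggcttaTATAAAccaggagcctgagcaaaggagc
Hist1h1d: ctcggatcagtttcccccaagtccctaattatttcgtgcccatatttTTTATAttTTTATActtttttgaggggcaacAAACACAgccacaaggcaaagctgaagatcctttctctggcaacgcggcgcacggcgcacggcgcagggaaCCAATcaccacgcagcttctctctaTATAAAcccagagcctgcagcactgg
Hist1h1e: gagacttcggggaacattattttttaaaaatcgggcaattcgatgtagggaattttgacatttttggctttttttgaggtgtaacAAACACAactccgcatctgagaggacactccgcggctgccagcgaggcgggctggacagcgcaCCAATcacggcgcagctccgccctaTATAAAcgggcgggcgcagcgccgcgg
Hist1h1c: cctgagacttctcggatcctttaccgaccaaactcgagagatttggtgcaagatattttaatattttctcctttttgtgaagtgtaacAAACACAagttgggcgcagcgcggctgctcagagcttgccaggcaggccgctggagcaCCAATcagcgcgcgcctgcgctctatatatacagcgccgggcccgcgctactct
Hist1h1a: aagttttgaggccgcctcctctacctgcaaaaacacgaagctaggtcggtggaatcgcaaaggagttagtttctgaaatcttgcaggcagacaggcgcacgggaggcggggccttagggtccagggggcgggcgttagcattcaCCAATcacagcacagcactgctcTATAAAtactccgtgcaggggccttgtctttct
AAACACA was present upstream of Hist1h1b, Hist1h1d, Hist1h1e and Hist1h1c, with its first base at -117, -122, -115 and -112 from the start, and not in the window of Hist1h1a. CCAAT was found in all 5. TATAAA was found upstream of Hist1h1b, Hist1h1d, Hist1h1e and Hist1h1a but not Hist1h1c. Over 32851 RefSeq promoters cut to the same 200 bases, AAACACA was in 4.80%, CCAAT in 29.3% and TATAAA in 9.96% on either strand. Among the 52 cluster histone promoters in that table they were in 8 (15.4%), 44 (84.6%) and 23 (44.2%). A match is a description of the letters and was not tied to any contact.

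Block 1 held the same strong TAD in every library. It ran from 21.93 Mb (21.94 or 21.95 Mb in 4 libraries) to 22.14 Mb, 190 to 210 kb long, and its end fell in the same place in all 10. Its score, the authors' value per TAD with no unit and never under 1.5 in the lists, reached 3.87 and 4.15 for WT, 4.04 and 4.06 for E1-KO, 4.07 and 3.62 for E2-KO, 4.08 and 3.80 for E3-KO, and 3.40 and 4.62 for E1&E3-dKO. The mean over libraries was 3.97 ± 0.330 (SD, n = 10). The 2 double knockout libraries gave both the lowest and the highest score, and the knockout scores lay on both sides of the WT scores. It was the TAD of highest score in E1-KO 1, the second of the list in WT 1, WT 2, E1-KO 2, E3-KO 1 and E1&E3-dKO 2, number 6 in E1&E3-dKO 1, 8 in E3-KO 2 and 15 in E2-KO 2. It stood at 130 of 7962 in E2-KO 1, where scores in general were higher.

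A second recurrent TAD covered the start of block 2. It ran from 23.51 or 23.52 Mb to between 23.61 and 23.63 Mb in all 10 libraries, 90 to 120 kb long. It scored 2.30 and 2.68 for WT, 2.28 and 2.38 for E1-KO, 4.06 and 2.23 for E2-KO, 2.33 and 2.15 for E3-KO, and 2.48 and 2.84 for E1&E3-dKO, a mean of 2.57 ± 0.562 (SD, n = 10). E2-KO 1 stood above all other libraries, and without it the scores ranged from 2.15 to 2.84. In every library it scored lower than the block 1 TAD, by the least in E2-KO 1.

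**Figure D1:**
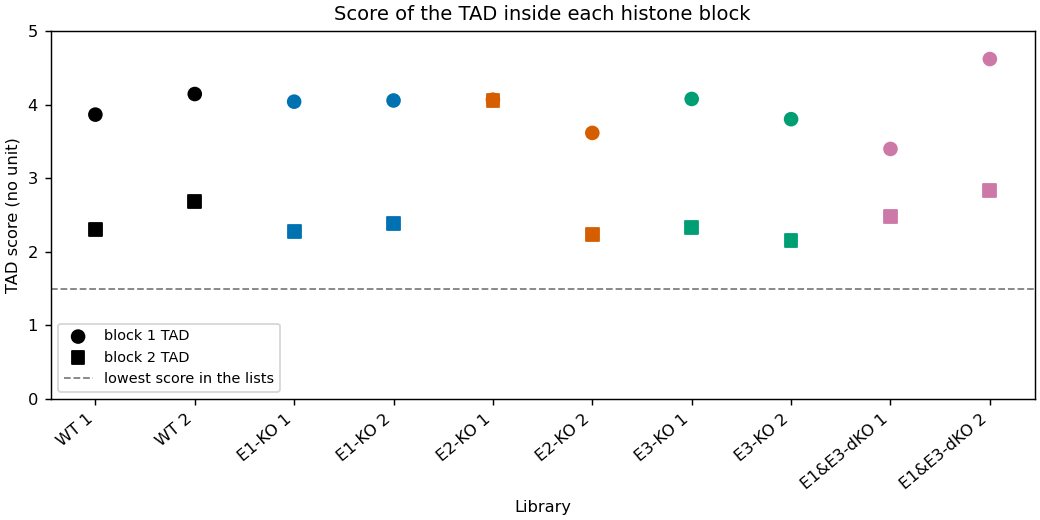
The authors' TAD score (vertical axis, no unit) of the TAD inside block 1 (circles) and block 2 (squares) in each of the 10 libraries (horizontal axis). The dashed line is the lowest score in the lists, 1.5. Block 1 scores range from 3.40 to 4.62 and lie above the block 2 scores, except in E2-KO 1, where the symbols overlap.

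Another TAD, at the far end of block 2, was listed in all 8 knockout libraries and in neither WT library. It began at 23.77 or 23.78 Mb and ended between 23.84 and 23.87 Mb, 60 to 100 kb away. Its scores were 1.69 and 1.71 for E1-KO, 2.81 and 1.80 for E2-KO, 1.79 and 1.87 for E3-KO, and 1.72 and 1.90 for E1&E3-dKO. Apart from E2-KO 1 these lie within 0.4 of the lowest score that the lists hold, and the WT scores of this stretch are unknown, since a TAD under 1.5 is not listed. Its lengths differed enough that the libraries did not all match at 80% reciprocal overlap, so it did not count as 1 TAD of all knockouts. Its start did: the boundary at 23.78 Mb was held by all 8 knockout and no WT libraries, as 1 of 25 window boundaries against 0.0294% of all boundaries. No window TAD (0 of 22, against 0.0095% of all TADs) and no window interaction (0 of 55, against 0.00717% of all interactions) had that pattern. The boundary was already known from earlier results of these data, so this is a description. No library had a TAD between the end of the first block 2 TAD and the start of this one, from 23.63 to 23.77 Mb.

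Between the blocks the receptor interval was covered by 1 large TAD in 6 libraries. It ran from 22.14 to 23.51 Mb, 1370 kb, in WT 1 (score 2.097), E1-KO 1 (2.02) and E3-KO 1 (1.97), and so reached from the block 1 TAD to the block 2 TAD. It began at 22.15 Mb and ended earlier, at 23.36 Mb in E1-KO 2 (2.17) and E2-KO 2 (2.33) and at 23.35 Mb in E2-KO 1 (4.55). WT 2, E3-KO 2 and E1&E3-dKO 1 listed no TAD there. E1&E3-dKO 2 listed 3 shorter ones, from 22.69 to 22.78 Mb, from 23.11 to 23.27 Mb and from 23.38 to 23.50 Mb. Neither form was limited to a genotype, and the E1-KO libraries had 1 of each.

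**Figure D2:**
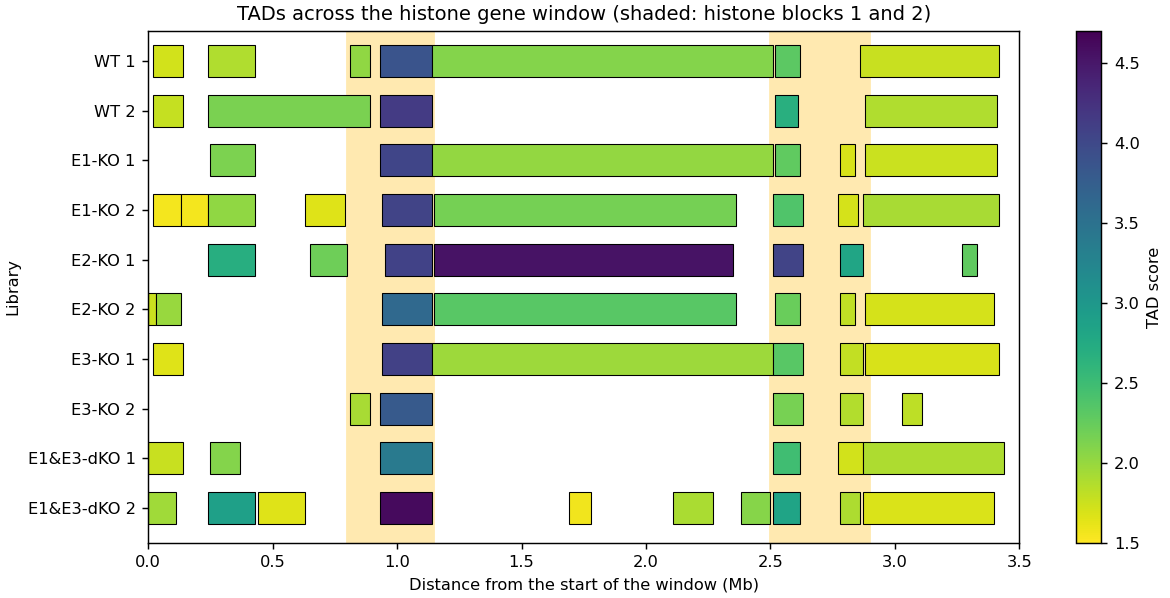
TADs overlapping the window in each library (one line of boxes per library), by distance from the start of the window in Mb; colour is the authors' TAD score and shading marks the 2 histone blocks. The block 1 TAD and the first block 2 TAD appear in all 10 libraries, the TAD at the far end of block 2 in the 8 knockout libraries, and the large TAD between the blocks in 6.

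Several boundaries of the cluster recurred across libraries. In the window, 7 of 25 (28%) were held by 8 or more libraries, against 10.6% of all boundaries. Those at 21.93, 22.14, 23.51, 23.63 and 23.87 Mb were in all 10 libraries, the one at 23.78 Mb in the 8 knockouts and the one at 24.42 Mb in 8. Of the TADs, 3 of 22 (13.6%) reached 8 libraries, against 5.18% of all TADs: the first TAD of each block, and 1 beyond block 2 from 23.87 to 24.42 Mb, absent from E2-KO 1 and E3-KO 2. Because the window was chosen with such values known, these shares were not tested.

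Among contacts inside block 2, 1 pair of bins was listed by the most libraries, at 23.525 and 23.615 Mb, which are also close to the ends of the first block 2 TAD. The deposited lists give the reads for each pair of 10 kb bins with an adjusted p-value of at most 0.01. An expected count was solved for from each deposited p-value, and reads over expected reads give the fold. The pair had 31 reads for WT 1, 38 and 15 for E1-KO, 7 for E2-KO 1, 27 and 13 for E3-KO, and 13 and 17 for E1&E3-dKO. The fold was 9.33 in WT 1 (95% Poisson interval 6.34 to 13.2), 11.5 in E1-KO 1, 9.05 in E1-KO 2, 42.8 in E2-KO 1, 8.79 in E3-KO 1, 10.9 in E3-KO 2, 9.12 in E1&E3-dKO 1 and 17.0 in E1&E3-dKO 2. The folds lay between 8.79 and 11.5 in the 6 libraries other than E2-KO 1 and E1&E3-dKO 2, and no E2-KO library was among these. The interval of E2-KO 1, 17.2 to 88.2, rests on 7 reads, and its depth was the lowest: 0.159 reads were expected for an average pair at this distance of 90 kb, against 1.92 in WT 1.

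WT 2 and E2-KO 2 did not list this pair. For average bins at 90 kb a pair needed about 16 reads (7.24-fold) to be listed in WT 2 and 11 reads (13.9-fold) in E2-KO 2, where this and similar fold limits rest on the largest p-value of each list. The WT 2 limit lies below the folds of the libraries that listed the pair. The limits of those libraries were themselves higher, from 7.54-fold in E1-KO 1 to 37.7-fold in E2-KO 1. In E1-KO 1 and WT 1 (7.82-fold) they were close to the WT 2 limit. The Poisson interval of E1-KO 1 (8.11 to 15.7) lay above the WT 2 limit, and that of WT 1 (6.34 to 13.2) included it. The WT 2 list gives no bias factor for these bins, and whether the pair was weaker in WT 2 was not tested. E3-KO 2 listed the pair at 10.9-fold, under its limit for average bins of 14.6-fold. The same held for E1-KO 2 (9.05 against 12.2) and E1&E3-dKO 1 (9.12 against 11.7), so these limits are approximate. The pair was the only window interaction held by 8 or more libraries, 1 of 55 against 0.645% of all interactions. In all, 24 entries lay inside block 2, in 8 libraries, with 7 to 38 reads over 30 to 100 kb and a median fold of 8.75 (5.83 to 42.8). Of these, 10 came from E1-KO 1, among them 23.625 with 23.675 Mb (20 reads) and 23.795 with 23.825 Mb (18 reads), which fall outside the first TAD.

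Inside block 1 there were 9 entries in 5 libraries, with 6 to 22 reads over 30 to 110 kb and a median fold of 10.1 (5.14 to 48.5). WT libraries had none. The pair at 22.015 and 22.125 Mb, which spans the later part of the block 1 TAD, was listed with 16 reads in E1-KO 1 and 11 in E3-KO 2, and within 1 bin of it were 12 reads in E1&E3-dKO 1 and 10 in E1&E3-dKO 2. A shorter pair, 21.845 with 21.875 Mb, was listed in E1-KO 1 (21 reads) and E1&E3-dKO 2 (12 reads). The remaining entries were further pairs of E1-KO 1 and 1 of E2-KO 1 (21.885 with 21.945 Mb, 6 reads).

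Contacts inside the blocks had folds near those of other listed pairs of their length. Over all chromosomes, the 812 entries spanning 50 to 120 kb had a median fold of 9.57, and the 32 of them in the window had 8.75. The 812 include those of the window, and the 32 include 2 pairs outside the blocks. Of the 8 libraries with such pairs, the window median was above that of the whole list in WT 1 (7.68 against 6.97) and both E1-KO libraries (7.09 against 6.69 in E1-KO 1). It was below in the other 5, such as 14.0 against 17.5 in E3-KO 2 and 9.63 against 11.6 in E1&E3-dKO 1. These are folds of pairs that passed the list's threshold, so they carry a lower limit that moves with depth.

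Contacts between the blocks were few. Only 5 were listed, in 3 libraries, each with 6 or 7 reads over 1490 to 1630 kb. In E1-KO 1 they joined 21.975 with 23.605 Mb (6 reads, 49.7-fold, 95% Poisson interval 18.2 to 108), 22.035 with 23.525 Mb (7 reads, 33.5-fold) and 22.135 with 23.665 Mb (6 reads, 57.2-fold). E1-KO 2 listed 22.135 with 23.675 Mb (6 reads, 103-fold) and E1&E3-dKO 1 listed 22.025 with 23.595 Mb (7 reads, 95.9-fold, 38.5 to 197). Their ends in block 1 all lay inside the block 1 TAD, and 3 of their ends in block 2 lay inside the first block 2 TAD. The pair of E1-KO 2 lies within 1 bin of the last of these in E1-KO 1, and no other between-block contact was shared by libraries. For average bins at 1540 kb, 6 reads were needed to be listed in WT 1 and WT 2 (62.6-fold and 58.6-fold). Bins with high bias factors can be listed at lower folds, as was 22.035 with 23.525 Mb in E1-KO 1, at 33.5-fold against 46.4-fold for average bins.

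Set against contacts inside each block, 5 entries joined the blocks while 9 lay inside block 1 and 24 inside block 2. As a share of these block interactions, contacts between the blocks made up 3 of 17 in E1-KO 1 (17.6%, exact 95% binomial interval 3.80 to 43.4), 1 of 3 in E1-KO 2 (33.3%, 0.840 to 90.6) and 1 of 3 in E1&E3-dKO 1. They were 0 of 2 in WT 1, 0 of 2 in E2-KO 1, 0 of 3 in E3-KO 1, 0 of 2 in E3-KO 2 and 0 of 6 in E1&E3-dKO 2, for which the interval reaches 45.9%; WT 2 and E2-KO 2 listed no block interaction. The 7 knockout libraries with a value averaged 12.0% ± 15.9 (SD) against 0% in 1 WT library. With 1 WT library, holding 2 such interactions, no difference could pass: the smallest p that the exact permutation over the choices of 1 of 8 libraries allows is 0.125 (two-sided; p = 0.875 here). This comparison is nonetheless counted among the 5 tests over which p-values were adjusted. The intervals cover counting error only, and they treat neighbouring bins of 1 contact as separate draws. With both blocks widened by 200 kb on each side, an alternative chosen after seeing the data, the difference was 52.2 points, because the widened blocks take in the contacts at the edges of the receptor interval.

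**Figure D3:**
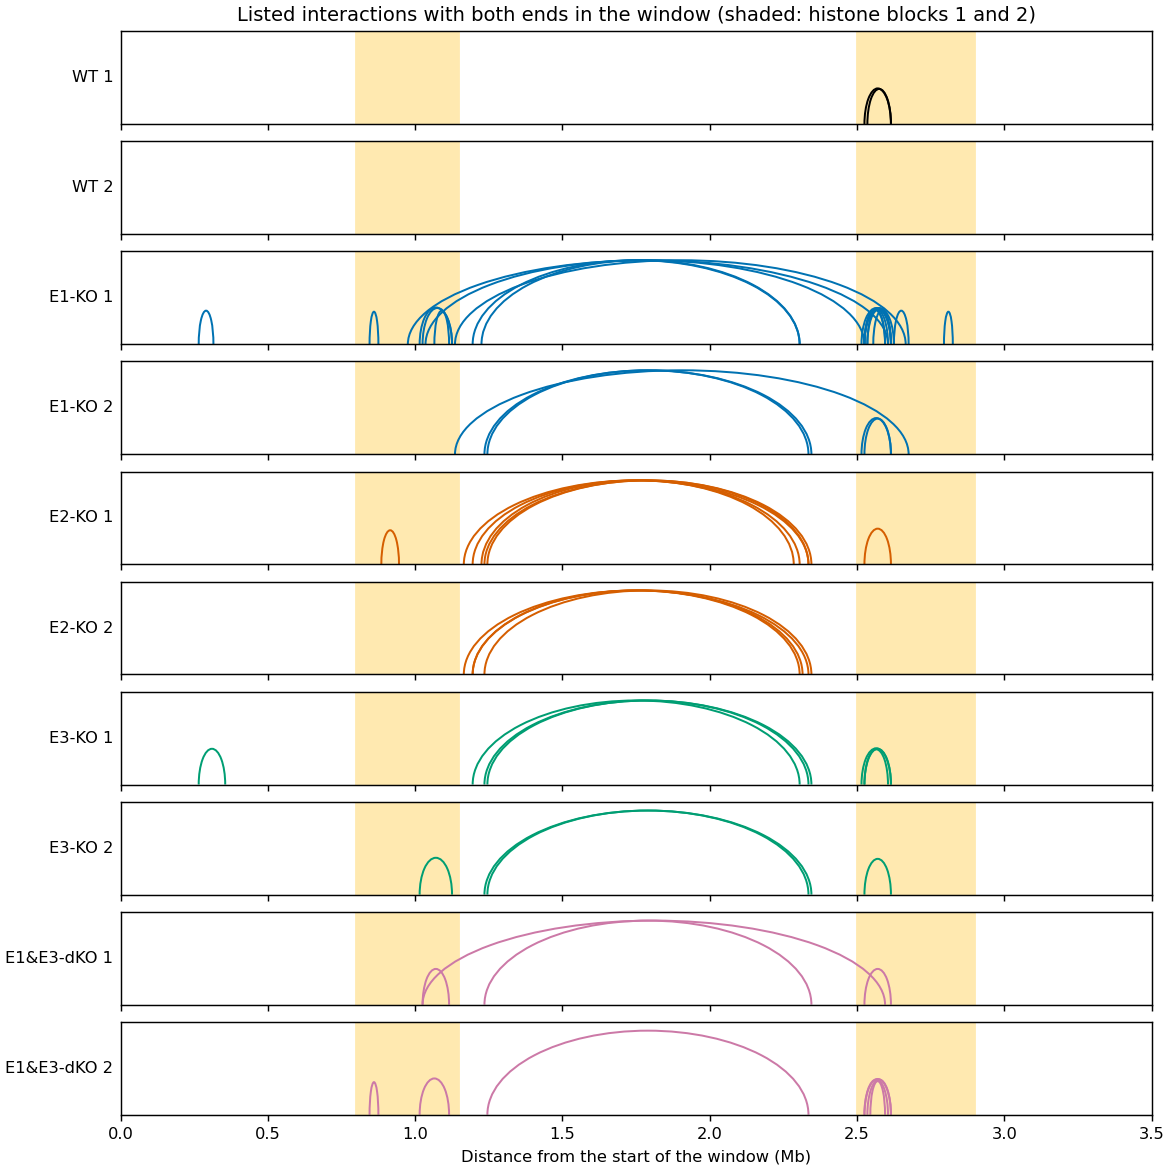
Listed interactions with both ends in the window, drawn as arcs between bins in each library, by distance from the start of the window in Mb; arc height has no scale, shading marks the histone blocks, and colour is the genotype. Arcs inside block 2 recur in 8 libraries, 5 arcs join the blocks, and arcs across the receptor interval appear in the 8 knockout libraries and in neither WT library.

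Contacts joining the 2 edges of the receptor interval were listed in all 8 knockout libraries and in neither WT library. They came to 20 entries with 5 to 16 reads each, with 1 end between 22.165 and 22.245 Mb, just beyond block 1, and the other between 23.285 and 23.345 Mb, 1060 to 1170 kb away and short of block 2. The pair at 22.235 and 23.345 Mb, or a pair within 1 bin of it, was held by 7 knockout libraries, with 8 reads for E1-KO 2 (79.0-fold), 16 and 13 for E2-KO (782-fold and 192-fold), 7 and 12 for E3-KO (50.8-fold and 205-fold), and 6 and 5 for E1&E3-dKO (68.3-fold and 149-fold). E1-KO 1 listed 22.195 with 23.305 Mb (8 reads, 60.3-fold) and 22.225 with 23.305 Mb (7 reads, 31.9-fold) instead. The reads of all such entries summed to 15 and 16 for E1-KO, 44 and 33 for E2-KO, 26 and 20 for E3-KO, and 6 and 5 for E1&E3-dKO. The double knockout had the lowest sums, and the 2 E2-KO libraries had the highest. These sums are not corrected for depth and take in unequal numbers of entries. By highest fold E2-KO 1 (782) was still the highest, but E1-KO 1 (60.3) was the lowest. E1&E3-dKO 2 (149) lay above E1-KO 2 (123) and E3-KO 1 (95.8) by that measure.

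The WT lists give an approximate limit. For average bins at 1110 kb, WT 1 would list a pair from 7 reads (43.2-fold, with 0.162 expected) and WT 2 from 7 reads (40.1-fold, with 0.174 expected). The highest fold of these contacts in each knockout library was above both limits, at 60.3 and 123 for E1-KO, 782 and 192 for E2-KO, 95.8 and 205 for E3-KO, and 68.3 and 149 for E1&E3-dKO. The knockouts' own limits for average bins were 33.1 and 61.4 for E1-KO, 321 and 83.9 for E2-KO, 48.4 and 81.5 for E3-KO, and 63.5 and 84.9 for E1&E3-dKO. Except in E1-KO 1 they exceed both WT limits, so for average bins any listed fold there lies above the WT limits. Lying above the WT limits therefore does not by itself show a difference from WT. Some highest folds were far past the library's own limit, such as 782 against 321 in E2-KO 1. Others were near it, such as 68.3 against 63.5 in E1&E3-dKO 1. The Poisson intervals of several knockout values, such as that of E1-KO 1 (26.0 to 119), include the WT limits, and the WT lists give no bias factor for these bins. The pattern was chosen after its values were seen and was not tested. Libraries titled w326 are WT 1, E2-KO 1, E2-KO 2 and E3-KO 2, and the knockouts among them had the 3 highest folds, while WT 1, of the same title, listed none. What the title stands for is not given, and its part in the result was not tested. Over all listed pairs of 1 to 2 Mb, the window's own included, the median fold was 216 for 583 entries, against 103 for the 25 window entries, which hold the 20 edge contacts and the 5 between-block contacts. Within libraries the window median was the lower in 6 of the 8 knockouts, such as 132 against 195 in E2-KO 2 and 82.1 against 121 in E1&E3-dKO 1. It was the higher in both E3-KO libraries, at 88.1 against 86.3 and 192 against 185.

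**Figure D4:**
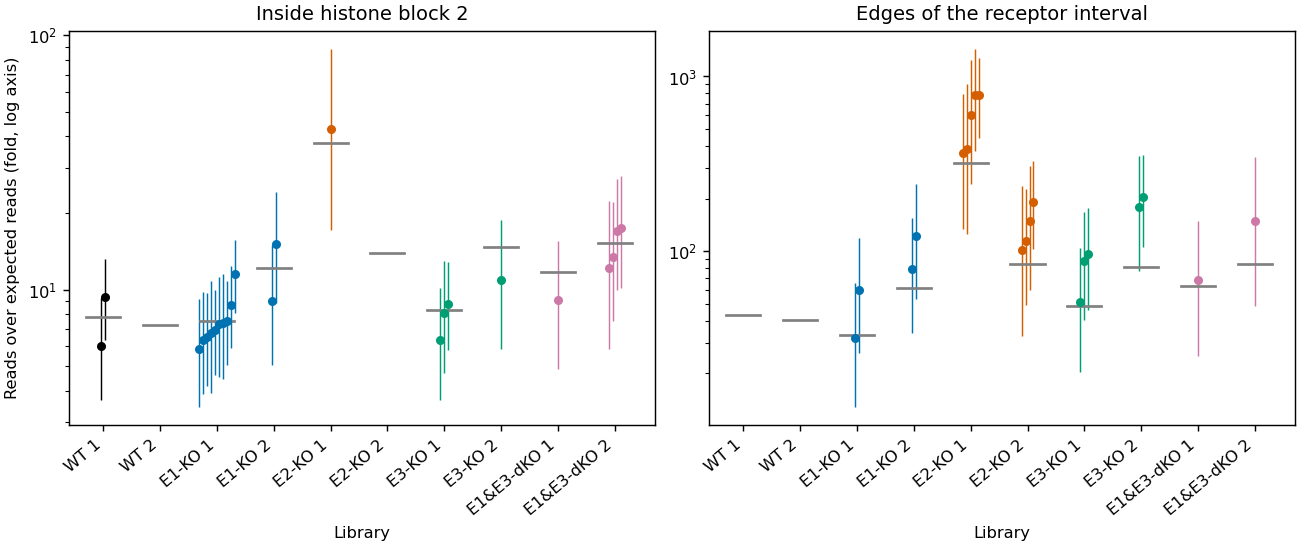
Reads over expected reads (log axis) of listed interactions inside block 2 (left) and at the edges of the receptor interval (right) in each library; points are interactions, vertical lines their 95% Poisson intervals, and grey bars the smallest fold that average bins needed to be listed (at 90 and 1110 kb). Inside block 2 most folds lie near 10 in WT 1 and in knockouts, while the right panel has no WT points and WT limits of 43.2 and 40.1.

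Lost and gained features of the window were few in each knockout. A feature was gained when both knockout libraries and neither WT library held it, and lost in the reverse case; all 4 comparisons share the WT libraries. Of interactions, E1-KO changed 1 of 20 (1.54% of all interactions in that comparison changed), E2-KO 3 of 17 (5.48%), E3-KO 1 of 14 (0.814%) and E1&E3-dKO 2 of 27 (0.319%), and all 7 were gains. No window interaction was held by both WT libraries, so none could count as lost, and the direction carries no information. They were 22.135 with 23.675 Mb, the between-block contact, in E1-KO; 22.235 with 23.345, 22.195 with 23.305 and 22.165 with 23.335 Mb in E2-KO; 22.235 with 23.345 Mb in E3-KO; and that pair and 22.015 with 22.125 Mb, inside block 1, in E1&E3-dKO. Edges of the receptor interval thus made up 5 of the 7. Single libraries weigh on these counts: leaving out 1 library gave 14 of 18 without E1-KO 2 (31.3% of all interactions), 12 of 16 without E2-KO 2 (65.8%), 6 of 10 without E3-KO 2 (28.7%) and 18 of 22 without E1&E3-dKO 1 (78.7%). A feature then needs 1 library fewer, so the share over all interactions rises too.

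Boundaries changed in 2 of 16 in E1-KO (6.69% over all boundaries), 3 of 18 in E2-KO (8.5%), 2 of 16 in E3-KO (5.73%) and 3 of 21 in E1&E3-dKO (6.63%). The gain at 23.78 Mb in block 2 was common to the 4 comparisons, which share the WT libraries, and E2-KO also gained 23.36 Mb, next to the edge of the receptor interval. The boundary at 21.89 Mb in block 1 was lost in E1-KO, E2-KO and E1&E3-dKO, while E3-KO 2 held it, with a TAD from 21.81 to 21.89 Mb as in WT 1. Outside the blocks 21.24 Mb was lost in E3-KO and 21.03 Mb in E1&E3-dKO. Of TADs, 0 of 12 changed in E1-KO (6.4% of all TADs), 0 of 13 in E2-KO (4.56%), 1 of 10 in E3-KO (4.64%) and 2 of 16 in E1&E3-dKO (5.23%). The TAD from 23.78 to 23.86 Mb was gained in E3-KO and E1&E3-dKO, and the one from 21.03 to 21.13 Mb was lost in E1&E3-dKO.

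The share of listed interactions with an end in the window was highest in E1-KO. It was 0.236% (3 of 1273) and 0.429% (2 of 466) for WT, 1.88% (20 of 1066) and 1.16% (6 of 518) for E1-KO, 0.400% (14 of 3497) and 0.476% (5 of 1050) for E2-KO, 1.09% (9 of 827) and 0.477% (7 of 1467) for E3-KO, and 0.940% (8 of 851) and 0.333% (20 of 6014) for E1&E3-dKO. The means were 0.332% ± 0.137 for WT, 1.52% ± 0.508 for E1-KO, 0.438% ± 0.0536 for E2-KO, 0.783% ± 0.432 for E3-KO and 0.636% ± 0.430 for E1&E3-dKO (SD, n = 2 each). Both E1-KO libraries lay above both WT libraries, and so did both E3-KO libraries. The exact 95% binomial intervals of E1-KO 2 (0.426 to 2.50%) and WT 2 (0.0520 to 1.54%) overlap. Such intervals treat each listed pair as a separate draw, though neighbouring bins of 1 contact can each be listed, so they may be too narrow. All 8 knockout libraries exceeded the WT mean, but E1&E3-dKO 2 only barely (0.3326% against 0.3324%), and it and E2-KO 1 lay below WT 2. Knockouts averaged 0.844% ± 0.529 (n = 8), 0.511 points above WT. The difference did not pass (exact permutation over 45 choices of 2 libraries, two-sided, p = 0.2, adjusted p = 0.5), nor did libraries of a genotype lie closer together than in other pairings (exact permutation over 945 pairings, one-sided, p = 0.132, adjusted p = 0.5). The smallest p that 45 choices can give is 0.0222.

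Among interactions of 2 Mb and less the knockouts were 1.80 points above WT. This limit was set after the local contacts had been seen, so the difference is a description. The permutation p-value given for it among the alternatives below is no independent test. The shares were 0.557% (2 of 359) and 0% (0 of 44, which allows up to 8.04%) in WT. They were 2.54% and 2.40% for E1-KO, 0.745% and 0.758% for E2-KO, 3.04% and 1.39% for E3-KO, and 3.70% and 2.04% for E1&E3-dKO. The E2-KO libraries lay nearest to WT 1, and the WT 2 interval takes in every knockout value.

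**Figure D5:**
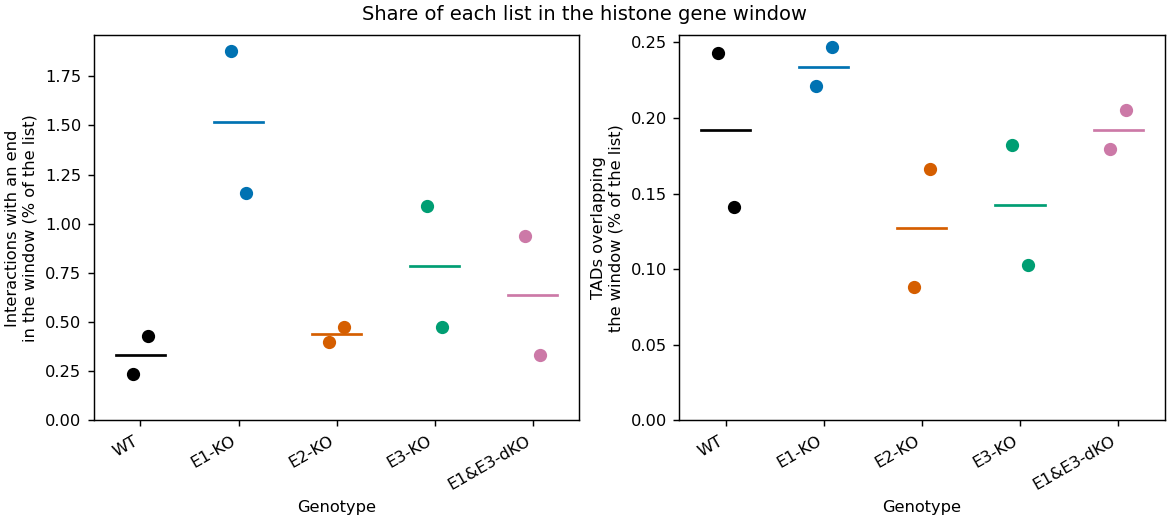
Percent of each library's interactions with an end in the window (left) and of its TADs overlapping the window (right), by genotype; points are libraries and bars the mean of 2. E1-KO has the highest mean share of interactions, 1.52%, and TAD shares of WT and knockouts overlap.

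TADs of the window numbered 5 to 10 per library and made up 0.243% and 0.141% of the WT lists, 0.221% and 0.247% for E1-KO, 0.0879% and 0.166% for E2-KO, 0.182% and 0.103% for E3-KO, and 0.179% and 0.205% for E1&E3-dKO. Knockouts averaged 0.174% ± 0.0549 (n = 8) against 0.192% ± 0.0723 in WT (n = 2), a difference of -0.0182 points (exact permutation, two-sided, p = 0.778, adjusted p = 0.875). Without WT 1 the difference was 0.0330, so its sign rests on that library. Libraries of a genotype were no closer to each other than libraries of other pairings (exact permutation, one-sided, p = 0.422, adjusted p = 0.704).

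The window had 34 entries that joined it to bins outside, over 6550 to 89310 kb, with 2 to 5 reads each. None was listed in a second library. They numbered 1 and 2 for WT, 0 and 1 for E1-KO, 7 and 1 for E2-KO, 2 and 3 for E3-KO, and 4 and 13 for E1&E3-dKO, and so followed the long lists of E2-KO 1 and E1&E3-dKO 2. Recurrence in the window was otherwise limited to local pairs: 46 of the 55 interactions were in 1 library, 4 in 2, 1 in 3, 2 in 4, 1 in 7 and 1 in 8.

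Depth differed widely among the libraries. Total reads are not in the lists, and the expected reads of an average pair at 1 Mb served in their place, ranging from 0.0147 in E2-KO 1 to 0.246 in E1-KO 1, with 0.191 and 0.207 in WT. The lists held 466 to 6014 interactions and 2715 to 7962 TADs, with the most TADs in the shallowest library. A contact missing from a list may have been too weak for the depth of that library, and how far depth enters the differences between libraries was not tested.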

How the data were processed

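Exo-Hi-C contacts of 10 libraries, 2 for each of 5 genotypes, were taken from 20 deposited files, with groups from the labels. The authors used the mm9 build, HiC-Pro 2.10.0 and HOMER, per the submitters' processing notes; which tool called interactions or TADs is not given in the sources used here. The deposited interaction lists hold, per the file contents, an unscaled count of reads for a pair of 10 kb bins. Beside it stands the authors' p-value and its adjusted form, never above 0.01. The bias factor of each bin, as deposited, is a ratio to an average bin, from 0.5 to 2.0. The deposited TAD lists give ends and the authors' score, at least 1.5. The list of WT replicate 2 held each pair 2 times (932 lines) and was used once per pair.

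Expected reads were the mean of a Poisson count for which the reads of a pair have its p-value; divided by both bias factors, it gives the value for average bins. Pairs at 1 distance in a library agreed on that value to within a ratio of 1.00001. Interactions matched within 1 bin at both ends, boundaries within 25 kb and TADs at 80% reciprocal overlap. Bins were placed in blocks by their midpoint. WT and knockouts were compared by exact permutation over libraries, with Benjamini-Hochberg adjustment over 5 tests, and 2 libraries against 2 were not tested alone. The matching and permutation steps were tested on simulated data. Named regions were the interactions, TADs and boundaries held by most libraries, those that join the blocks, and the lost and gained ones of each knockout; other genes are given by family and order. Members, lists and this rule were chosen with earlier results of these data known. Alternatives were another match rule, a stricter adjusted p, equal numbers of calls per library, reads in place of interactions, other block edges, the replicate block, w326 titles, and each library left out. Python 3.11.15, NumPy 2.4.6, pandas 2.3.3, SciPy 1.17.1 and Matplotlib 3.10.9 were used.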

Additional observations from a re-analysis of the deposited data

How the results depend on the processing

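The share of interactions in the window stayed 0.216 to 0.724 points higher in knockouts under the alternatives run, apart from pairs of 2 Mb and less, where it was 1.80 (exact permutation p = 0.0444, unadjusted; the limit was set after these contacts were seen, so this is no independent test). It was 0.364 to 0.608 with single libraries left out. Libraries titled w326 alone gave 0.216 and the others 0.650. The share of contacts between the blocks differed by 8.50 to 14.1 points with single libraries left out; it was 21.4 at an adjusted p of 0.001, 22.2 with the same number of best interactions and 6.18 by reads. Without WT replicate 1, and with the libraries not titled w326, it had no WT value, and in the libraries titled w326 it was 0, with 0% in WT and knockouts alike. The TAD share turned to 0.0138 with the same number of best TADs and to 0.0659 in libraries not titled w326, was -0.124 in those titled w326 and -0.537 at a score of at least 2, and ranged from -0.0694 to 0.0330 with single libraries left out. The cause was not tested.

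Replicate numbers are not stated to mark shared cultures or batches. With them as a block, the exact permutation p was 0.24 for 0.511 points of window interactions, 0.8 for 12.0 points between the blocks and 0.8 for -0.0182 points of TADs, so no call changed. For the share between the blocks only 5 choices remained, too few for any difference to pass, so that call could not change. Replicate 1 lay above the mean of its genotype in 3 of 5 genotypes for interactions and in 2 of 5 for TADs.

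Counts of features moved with the match rule. With exact bins and boundaries and 90% overlap, 2 of 49 boundaries were in 8 or more libraries (0.921% of all); changed interactions were 2 of 17 in E3-KO (1.25%) and 0 of 30 in E1&E3-dKO (0.459%), changed boundaries 6 of 32 for E2-KO (5.06%) and 5 of 22 for E3-KO (5.74%), and changed TADs 1 of 15 for E2-KO (4.195%) and 2 of 11 for E3-KO (4.25%). With 2 bins, 50 kb and 50% overlap, changed boundaries were 1 of 13 in E1-KO (6.70%) and 1 of 18 in E1&E3-dKO (7.21%), and changed TADs 1 of 11 in E1-KO (6.73%), 1 of 12 in E2-KO (6.72%) and 1 of 13 in E1&E3-dKO (6.06%). At an adjusted p of at most 0.001, which leaves fewer interactions, 0 of 23 were in 8 or more libraries (1.75% of all), and 0 of 12 changed in E1-KO (3.65%) and 0 of 9 in E1&E3-dKO (0.766%). With single libraries left out, changed interactions were 2 to 14 in E1-KO, 4 to 12 in E2-KO, 2 to 6 in E3-KO and 3 to 18 in E1&E3-dKO. Changed boundaries were 2 to 4, 3 to 9, 2 to 7 and 3 to 9, and changed TADs 1 to 3, 1 to 5, 1 to 4 and 3 to 7, in the same order. As shares these were 11.1 to 81.8% of window interactions against 5.80 to 78.7% of all, 12.5 to 50% of boundaries against 14.2 to 64.2%, and 8.33 to 50% of TADs against 10.9 to 70.8%. For average bins at 1110 kb the fewest reads listed were 7 in WT and 4 in E2-KO replicate 1, the library of lowest depth.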
